A study of Mus musculus with 2 samples.

Results

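The cells described here were 60 of 7332 single cells from mouse femurs that carried large amounts of Elane, Mpo, Prtn3 and Ctsg transcripts, the messages for neutrophil elastase, myeloperoxidase, proteinase 3 and cathepsin G. A barcode counted as a cell with at least 1000 genes and at most 15% of its UMIs from mitochondrial genes, a UMI being a random barcode by which copies of the same captured RNA are recognized and counted as 1. Members were chosen by their measured counts, as cells with these 4 transcripts summing to at least 20 per 10000 UMIs of the cell, with Elane and Mpo at 10 or more and with Adipoq, Lpl and Hp together under 10. The working name of the class was granulocyte progenitors. As the values below show, 27 of the 60 cells also carried monocyte transcripts, so they are called Elane/Mpo-high cells here.

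Both animals, Mouse #1 and Mouse #2, belonged to 1 group, so no treatment or genotype was compared. They carried a GFP allele of Cxcl12 over a wild-type allele, a tamoxifen-inducible recombinase expressed from a Cxcl12 bacterial artificial chromosome (Cxcl12-iCreER) and 1 tdTomato reporter allele at the R26R locus. Tamoxifen was given at postnatal day 21, and femurs were taken at postnatal day 28. Growth plates at the distal end were removed and proximal ends were cut away, the remaining bone was digested with enzymes, and GFP-positive cells were sorted and run on 10x Chromium, 1 library per mouse. One protocol field of the labels names tdTomato-positive cells in place of GFP-positive cells, and the cells are taken here as sorted on GFP. The gate was meant for stromal cells, so these blood cells were not a sample of the marrow's progenitors, and their share says nothing of their frequency in marrow. The GFP allele and the recombinase were in all cells compared, so no wild-type mouse stands beside them.

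Neutrophils form in the marrow from granulocyte-monocyte progenitors that share their early steps with monocytes. In the promyelocyte stage the cell fills azurophil granules with Elane, Mpo, Prtn3 and Ctsg, and later stages make specific granules (Ltf, Camp, Ngp) and then gelatinase granules (Mmp8, Mmp9). Cebpa and Spi1 (PU.1) are needed at the shared stage, Irf8 and Klf4 are known for the monocyte path, and Gfi1 and Cebpe for the neutrophil path.

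Elane/Mpo-high cells made up 1.42% of cells in Mouse #1 (39 of 2750, 95% Wilson interval 1.04 to 1.93) and 0.458% in Mouse #2 (21 of 4582, interval 0.300 to 0.700). Such intervals cover counting error only. The mean over the 2 mice was 0.938% ± 0.679 (SD, n = 2), a spread that makes the share poorly determined. These were deep cells, with a median of 51801 UMIs in Mouse #1 and 46741 in Mouse #2, against 12966.5 and 12190 over all cells. Their own counts ran from 3206 to 96062 UMIs in Mouse #1 and from 18389 to 80066 in Mouse #2. The libraries shared 7 barcodes among cells, and 0 of these were members.

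The 4 genes that chose the cells lie in 3 places of the genome (mm10, GENCODE vM21 positions). Prtn3 (ENSMUSG00000057729, chr10:79874476-79883174) and Elane (ENSMUSG00000020125, chr10:79886247-79888215) are neighbours on the plus strand, with 3072 bases between them. Mpo (ENSMUSG00000009350) is at chr11:87793581-87804413 on the plus strand and Ctsg (ENSMUSG00000040314) at chr14:56099881-56102574 on the minus strand. Because their transcripts were high together in the same cells, the stretch before each gene's RefSeq start (GRCm38.p6) is shown, stopped at the first base that GENCODE annotates as untranslated exon. RefSeq starts of Elane, Prtn3 and Mpo lie inside the GENCODE gene spans given here. The Prtn3 stretch is therefore within its span, and the searched windows of Elane and Mpo run into theirs. Capitals mark the letters GAGGAA, a core that PU.1 binds, and AACNG, a core that MYB binds, on either strand. In Prtn3 the last capitals open a MYB match that runs past the printed end. The MYB matches of Elane and Mpo lie wholly past their printed ends, so no capitals show them.

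Elane, chr10:79886062-79886246, plus strand: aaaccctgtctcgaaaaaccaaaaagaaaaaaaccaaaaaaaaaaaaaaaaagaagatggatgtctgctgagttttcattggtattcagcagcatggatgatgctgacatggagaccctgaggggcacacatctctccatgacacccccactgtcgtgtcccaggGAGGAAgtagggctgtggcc
Prtn3, chr10:79879417-79879613, plus strand: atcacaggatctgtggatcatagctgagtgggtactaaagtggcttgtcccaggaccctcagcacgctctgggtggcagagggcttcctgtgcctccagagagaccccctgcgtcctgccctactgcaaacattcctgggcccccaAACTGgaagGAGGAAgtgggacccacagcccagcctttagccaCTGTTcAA
Mpo, chr11:87793534-87793580, plus strand: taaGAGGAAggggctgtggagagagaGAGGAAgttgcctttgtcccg
Ctsg, chr14:56102575-56102824, minus strand: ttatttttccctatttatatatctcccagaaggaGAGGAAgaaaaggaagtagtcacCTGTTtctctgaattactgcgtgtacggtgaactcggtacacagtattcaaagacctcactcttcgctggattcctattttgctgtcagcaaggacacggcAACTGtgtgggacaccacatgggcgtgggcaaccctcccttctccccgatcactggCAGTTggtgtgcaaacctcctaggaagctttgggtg

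Motif letters were searched on both strands in the 250 bases before each RefSeq start. GAGGAA was in 4 of the 4 windows, against 23.3% of 32851 RefSeq promoter windows of this length. Its first base lay at -85 in Elane, -95 in Prtn3, -247 and -224 in Mpo, and -216 in Ctsg, counted from the base before the start as -1. AACNG was also in 4 of 4 but in 74.2% of all windows, so it sets these genes little apart. Its first base lay at -50 and -20 in Elane and at -165 in Mpo, past the printed stretches. TGTGGT (RUNX) was in 1 of 4, against 14.05% of all windows, AATC (GFI1) in 2 of 4, against 69.0%, and TTNNGNAA (C/EBP) in 0 of 4, against 36.8%. These are matches of letters in short windows and were not tested as binding sites.

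By construction the members were high in these transcripts, and the values are given as a description. Elane reached 6448 and 9452 CPM (counts per 1000000 UMIs, with the members of a mouse summed) in Mouse #1 and Mouse #2, Prtn3 7114 and 8230.4, Mpo 4393 and 5346 and Ctsg 3271 and 3529. In the highest cell the 4 transcripts took 6.57% of all UMIs. Just inside the limit of 20 stood cells at 20.2, 24.2 and 25.02 per 10000. Cells next to the Elane plus Mpo limit were at 11.7, 14.1 and 14.1 inside and at 9.68, 8.97 and 8.92 outside. The limit on Adipoq, Lpl and Hp cut through a dense range, with 9.96, 9.83 and 9.76 inside and 3 cells at 10.4 outside. For background, an Elane UMI was seen in 8.91% and 2.96% of stromal cells, at median depths of 12956 and 11814 UMIs, against 97.4% and 100% of members.

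**Figure D1:**
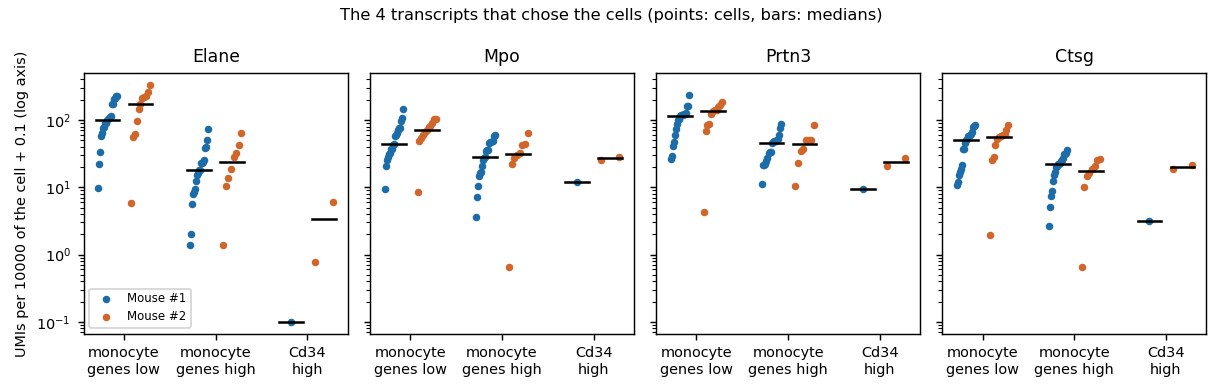
Elane, Mpo, Prtn3 and Ctsg in each Elane/Mpo-high cell, as UMIs per 10000 of the cell plus 0.1 on a log axis, by member group and mouse; points are cells and bars medians. The 30 cells with low monocyte genes sit above the 27 with high monocyte genes in the medians of all 4 transcripts, and the 3 Cd34-high cells have little Elane.

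Checked against the markers of the class, the label held for part of the cells. Ms4a3, a membrane protein of granulocyte-monocyte progenitors, had a UMI in 97.4% and 95.2% of members, against 1.72% and 0.646% of stromal cells. Cebpe, the factor of the promyelocyte and later stages, was detected in 71.8% and 71.4% of members. Fcnb, the ficolin of immature granules, was detected in 25 cells of Mouse #1 and 11 of Mouse #2. Irf8, the monocyte and dendritic cell factor, had a UMI in 33 of the 60 cells and Gfi1 in 29, with both in 8.

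Members fell apart along the monocyte genes Ccr2, F13a1, Ms4a6c and Csf1r. At a limit of 6 per 10000 for their sum, the one that also defined monocytes, 27 members were above (19 in Mouse #1, 8 in Mouse #2). Another 30 (19 and 11) were below, and 3 (1 and 2) were set aside for Cd34 at 2 per 10000 or more. Few cells lay near the limit, with 3 members between 3 and 10 per 10000. Among all 60, 28 had Irf8 at 1 per 10000 or more, 26 had Ms4a3 at 5 or more, 0 had both and 6 had neither. The 0 depends on the cut of 5, since cells just under it held both, such as a Mouse #1 cell with Ms4a3 at 4.86 and Irf8 at 6.48. An Ms4a3 UMI was seen in 26 of the 27 cells above the monocyte limit. This division was made after the values were seen, so all differences between the groups below are descriptions without a test.

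**Figure D2:**
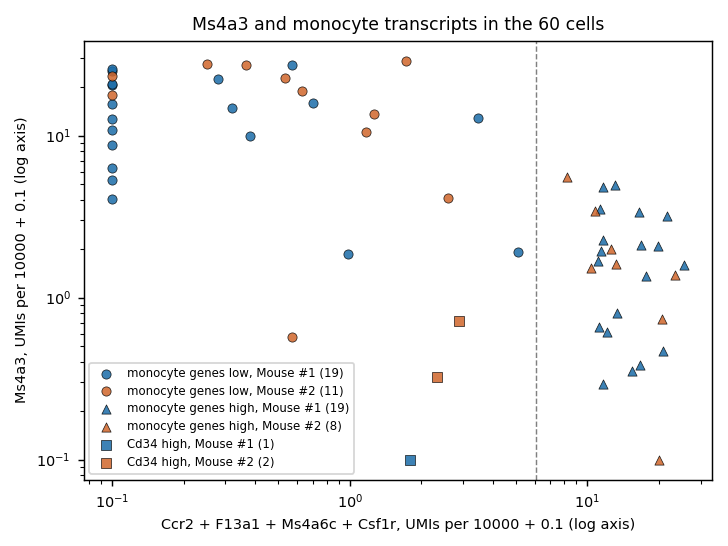
Ms4a3 against the sum of Ccr2, F13a1, Ms4a6c and Csf1r in the 60 cells, both as UMIs per 10000 plus 0.1 on log axes, with mouse by color and group by shape; the dashed line is the limit of 6. Cells right of the line have Ms4a3 at 5.44 per 10000 or less, and cells left of it reach 28.9.

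Azurophil transcripts were higher in the cells with low monocyte genes. Their 4-transcript sum ran from 20.2 through a median of 343 to 657 per 10000, against 25.02, 118 and 246 in the cells with high monocyte genes, so the ranges overlapped. Elane had a median of 109 per 10000 (5.64 to 330.2) against 18.1 (1.28 to 73.2). Mpo differed less, with 59.9 (8.46 to 146.8) against 30.1 (0.54 to 65.0). Each cell with high monocyte genes had a UMI of Elane, Mpo and Ctsg, which the member rule makes likely, and a Mouse #2 cell had only 1 UMI each of Mpo and Ctsg. The Ctsg median was 20.5 against 52.0 in the cells with low monocyte genes. For Elane, Mpo and Ctsg the ranges of the groups overlapped.

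Other transcripts of the azurophil list differed as well. Ms4a3 had medians of 15.1 and 1.52 per 10000 (ranges 0.47 to 28.9 and 0 to 5.44). Summed over cells, Prss57, a serine protease of azurophil granules, was at 380.0 and 324 CPM in the cells with low monocyte genes and 16.4 and 33.9 in those with high monocyte genes. Nkg7, a granule membrane protein of cytotoxic and myeloid cells, was at 1031 and 896 against 89.8 and 38.8 CPM, and Srgn, the proteoglycan that packs granule proteases, at 4674 and 3749 against 916 and 582. The direction was the same in both mice for each of these. Ctsc, the protease that activates the granule serine proteases, ran the other way, with 21.2 and 54.0 against 356 and 230.2 CPM.

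The factors divided in the same way. Gfi1 was at 89.3 and 64.8 CPM with low monocyte genes and at 2.59 and 0 with high, and Cebpe at 283 and 246 against 14.7 and 36.3. Irf8 was at 10.6 and 68.4 against 396 and 579 CPM and Klf4, the factor of classical monocytes, at 4.54 and 3.60 against 295 and 141. Counted over cells, an Irf8 UMI was present in 5 of 30 cells with low monocyte genes and in 26 of 27 with high, and a Gfi1 UMI in 24 of 30 and 3 of 27. Myb, the factor of immature blood cells, was at 319 and 349 against 69.1 and 94.5 CPM. Cebpa, needed before both paths part, was at 39.4 and 50.4 against 63.9 and 38.8, with the mice in opposite order, and Spi1 at 192 and 234 against 276 and 319.8.

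**Figure D3:**
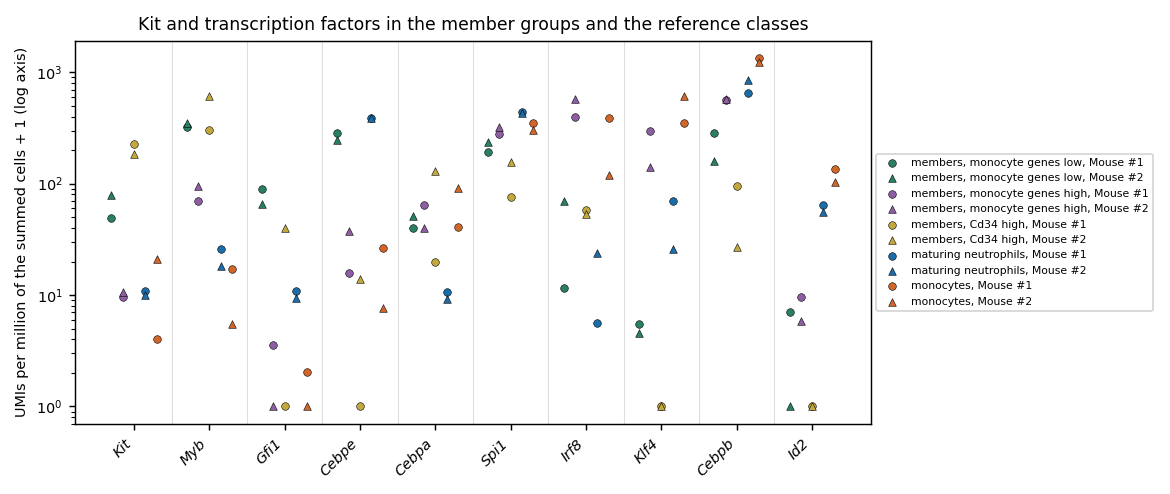
Levels of Kit and transcription factors, as CPM of the summed cells plus 1 on a log axis, in the 3 member groups and in maturing neutrophils and monocytes; circles are Mouse #1 and triangles Mouse #2. Gfi1 and Cebpe stand high in members with low monocyte genes, and Irf8 and Klf4 in members with high monocyte genes and in monocytes.

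Lysosome and surface genes of monocytes followed Irf8. Ctss, the cathepsin of antigen-presenting cells, was at 0 and 1.80 CPM with low monocyte genes and 111 and 96.9 with high, where each of the 27 cells had a UMI. Psap, the saposin precursor, was at 54.5 and 79.1 against 682 and 548 CPM, and Ly86 (MD-1, a partner of the receptor RP105) at 7.57 and 19.8 against 197 and 213. Even so, the cells with high monocyte genes were below the monocytes themselves, where Ctss was at 719 and 617 and Lyz2, lysozyme, at 13155 and 12735 CPM against 1259 and 869.9. 

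Some genes stood out in the cells with low monocyte genes without being granule proteins. Alas1, the first enzyme of heme synthesis, whose product Mpo binds, was at 696 and 417 CPM against 52.7 and 70.3. Its level per cell ran from 0.79 through 5.29 to 57.7 per 10000, and the second highest cell was at 12.8. Vcam1, an adhesion receptor better known from stroma and endothelium, was at 310.4 and 139 CPM with low monocyte genes and at 3.46 and 7.27 with high, and had a UMI in 24 of 30 and 6 of 27 cells. Stromal cells held more of it (1701 and 1603 CPM), while the summed stromal markers were at 147 and 727 CPM in the cells with low monocyte genes and at 105 and 204 in those with high. Whether stray stromal RNA carried part of the Vcam1 signal was not tested.

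The 3 Cd34-high cells looked different again. Their 4-transcript sums were 24.2, 69.9 and 77.2 per 10000, with Mpo at 11.7 to 27.8 and Elane at 0 to 5.89. Cd34, the sialomucin of early progenitors, was at 2.17 to 3.97 per 10000 by the choice of these cells. Kit, the stem cell factor receptor, was at 1.12 to 2.79 and Cdk6, a kinase of early G1, at 5.83 to 6.82. Klf4, Fcnb and Ly6c2 had 0 UMIs in all 3 cells. With 1 and 2 cells per mouse, no more can be read from them.

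Single cells of Mouse #2 carried transcripts of other types. Its cell at 20.2 per 10000, the lowest by the 4-transcript sum, held 44.2 Col1a1 UMIs per 10000, where the next of the 30 cells with low monocyte genes had 3.12. One cell with high monocyte genes, at 25.02 per 10000, held Ngp, Camp, Ltf and Lcn2 at a sum of 549 per 10000, with Cebpe at 6.53, where the next of the 27 cells reached 1.53 for that sum and 0.76 for Cebpe. It carries nearly all the Ngp and Camp of its group in Mouse #2 (5.18 and 1306 and 15.5 and 1006 CPM in Mouse #1 and Mouse #2). Whether these were doublets was not tested cell by cell. Among the cells with the highest Scrublet doublet scores, 60 in Mouse #1 and 168 in Mouse #2, were 1 and 0 members.

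Transcripts of later granules were low in most members. The secondary granule messages Ngp, Camp, Ltf and Lcn2 reached 10 per 10000 together in 8 of 60 members (6 and 2), too few for the planned comparison within members. In the cells with low monocyte genes Fcnb was at 327 and 282 CPM, Ngp, a cathelicidin-like granule protein, at 690.4 and 550.4 and Chil3 at 151 and 113. The highest of these cells in Mouse #2 held Ngp, Camp, Ltf and Lcn2 together at 73.6 per 10000, and the next at 2.12. Ltf, lactoferrin, was at 1.51 and 1.80 CPM, and Retnlg, a product of late neutrophils, at 4.54 and 0. S100a8 plus S100a9, which define the maturing neutrophils below, ran from 1.12 through a median of 106 to 1473 per 10000 in these cells. Camp, the cathelicidin precursor, was at 733 and 14.4 CPM, and 1 cell of Mouse #1 held 360 of its 484 UMIs, without which that value was 198.5 CPM. Hp, whose limit is in the rule, is itself a granule message of developing neutrophils, so these low values are partly fixed by the choice of cells.

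That limit kept out 48 cells (34 and 14) that met the protein limits and had Adipoq and Lpl under 10. In them Elane was at 13997 and 13084 CPM, against 14037 and 15686 in the members with low monocyte genes, and Prtn3 was at 10319 and 9249.6. Ngp was at 11336 and 15054 CPM and Camp at 18262 and 26258, far above the members, with Ngp still below the maturing neutrophils. Ltf was at 365 and 564 and Lcn2 at 1084 and 1717, below the maturing neutrophils (5843 and 6189 and 11117 and 12310.5). Retnlg was still low at 30.3 and 38.5 CPM, against 12999 and 13299.7 in maturing neutrophils. Another 5 cells (2 and 3) failed the limit through Adipoq and Lpl.

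**Figure D4:**
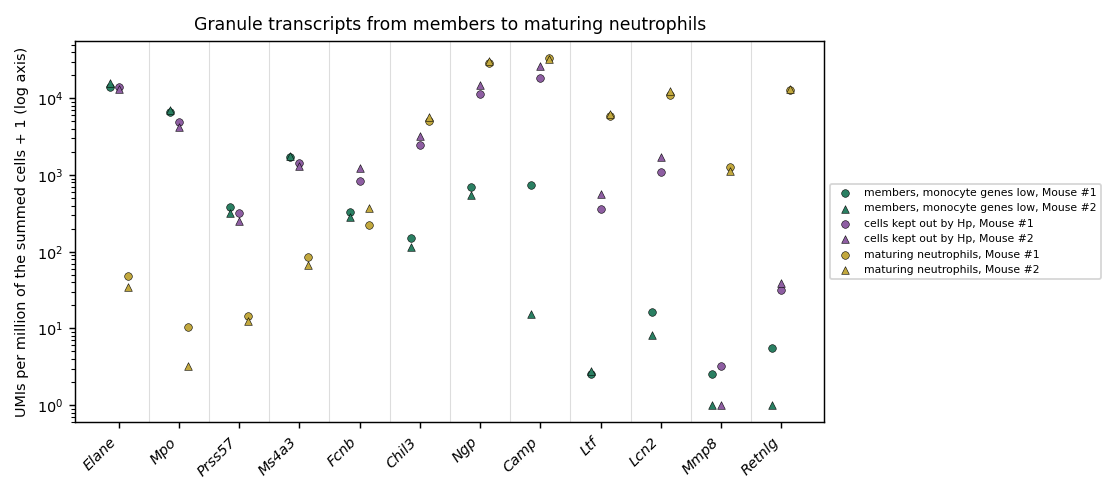
Granule transcripts in members with low monocyte genes, in the cells that the Hp limit kept out and in maturing neutrophils, as CPM of the summed cells plus 1 on a log axis; circles are Mouse #1 and triangles Mouse #2. Camp and Ngp are higher in the cells kept out than in the members, and Ngp, Ltf, Lcn2 and Retnlg are highest in maturing neutrophils.

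To see where members stood relative to their neighbours, their summed UMIs were compared with those of maturing neutrophils (S100a8 and S100a9 at 100 per 10000 or more, 188 and 205 cells) and of monocytes (the 4 monocyte genes at 6 or more, 54 and 25 cells). Both classes also had Elane, Mpo, Prtn3 and Ctsg together under 20 and Adipoq plus Lpl under 10 per 10000. Neutrophils had the monocyte genes under 6. Monocytes had S100a8 plus S100a9 under 100, C1qa, C1qb and C1qc together under 10 and Siglech under 2. The 48 cells kept out by Hp were in no class. Members were pooled as the rule gave them, 39 and 21 cells, so each value is a mix of both groups above. One fit of edgeR's quasi-likelihood test over 6 columns of counts gave log2 fold changes with Benjamini-Hochberg adjusted p-values over 9232 genes. All classes were cut by transcripts of the same cells, so genes that vary with those transcripts differ as well, and p-values measure the spread between 2 mice. Genes in the class limits have values only. Of all genes tested, 24.4% were called higher and 26.1% lower than in maturing neutrophils, and 9.82% higher and 12.3% lower than in monocytes. The median gene was at -0.0036 and -0.040 on the log2 scale.

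Fold changes were scaled by TMM factors, which set the bulk of genes level between classes, while CPM values are shares of all UMIs. The scales part most against neutrophils, where S100a8 and S100a9 alone took 164812 and 162676 and 170405 and 163088 CPM. Scaled by total UMIs instead, the median gene was at 0.763 against neutrophils and at -0.214 against monocytes on the log2 scale, and the calls were 4112 higher and 1278 lower against neutrophils (2252 and 2414 with TMM) and 710 higher and 1488 lower against monocytes (907 and 1134 with TMM). Fold changes below are relative to the TMM level, and where a list count or the call of a gene given with its fold change differs by total UMIs, both are given.

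Of the azurophil list, 6 of 10 tested genes were higher in members than in maturing neutrophils and 2 were lower (8 and 1 by total UMIs), with a median log2 fold change of 2.77. Members had Elane, Mpo, Prtn3 and Ctsg at 20 per 10000 or more and neutrophils under 20. Part of the differences in this list is therefore fixed by the class limits. Prss57 was at 144 and 188 CPM in members and 13.4 and 11.4 in maturing neutrophils, a log2 fold change of 2.97 ± 0.23 (SE, edgeR adjusted p = 0.000265). Ms4a3 was at 733 and 1007 against 84.5 and 67.0 CPM, with 2.75 ± 0.22 (SE, edgeR adjusted p = 0.000162). Cst7, cystatin F, an inhibitor of lysosomal proteases, was nearly absent from neutrophils, at 149 and 195 against 0.38 and 0.33 CPM, with 7.94 ± 0.39 (SE, edgeR adjusted p = 7.19e-05). Those lower were Lyz2 at -4.93 ± 0.36 (SE, edgeR adjusted p = 0.000125) and Serpinb1a, the elastase inhibitor, at -1.22 ± 0.21 (SE, edgeR adjusted p = 0.00308), the latter not called when scaled by total UMIs (-0.45, edgeR adjusted p = 0.102) or without the 27 cells of high monocyte genes (-0.42, edgeR adjusted p = 0.0639). Srgn was not called with TMM (0.42 ± 0.16 (SE, edgeR adjusted p = 0.0603)) and was called higher by total UMIs (1.19, edgeR adjusted p = 0.000279), by DESeq2 (0.41, adjusted p = 0.0321), at member limits of 40 and 20 (0.50, edgeR adjusted p = 0.0277), among cells with 2000 genes and 10% mitochondrial UMIs or less (2.12, edgeR adjusted p = 0.00036), without the cells of high monocyte genes (1.28, edgeR adjusted p = 0.00195) and without the monocytes of either mouse (0.44 and 0.42, edgeR adjusted p = 0.015 and 0.0176).

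Specific and gelatinase granule messages were lower in members in all 14 tested of the list, with a median of -6.95, and late neutrophil genes in all 13 tested (12 by total UMIs, median -5.33). Ltf was at 1.603 and 27.7 CPM in members against 5843 and 6189, or -9.64 ± 1.03 (SE, edgeR adjusted p = 0.000414). Ngp was at 247 and 808 against 28559 and 30591, with -6.60 ± 0.63 (SE, edgeR adjusted p = 0.000274). Fcnb, the earliest of the group, differed least, at 128 and 179 against 223 and 373 CPM, with -1.74 ± 0.30 (SE, edgeR adjusted p = 0.00307). At the other end was Retnlg with -12.68 ± 0.65 (SE, edgeR adjusted p = 7.56e-05), and the receptor Cxcr2 had -6.90 ± 0.28 (SE, edgeR adjusted p = 4.67e-05). Part of these differences is fixed by the class limits, on Hp in members and on S100a8 and S100a9 in neutrophils.

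Against monocytes, 7 of 10 azurophil genes were higher in members and 3 lower (median 2.69). Monocytes too were held under 20 per 10000 for Elane, Mpo, Prtn3 and Ctsg, so part of this is fixed by the class limits. Prss57 had 0 UMIs in the monocytes of both mice, which puts it at least 76.4-fold higher in members at a floor of 3 UMIs over the class. Ms4a3 was at 2.04 and 2.22 CPM in monocytes, with 8.78 ± 0.35 (SE, edgeR adjusted p = 0.000179). Lower in members were Ctsc, Lyz2 and Cstb, the last a cytosolic inhibitor of cathepsins. Of the specific and gelatinase list, 3 of 14 were higher (Fcnb, Ngp, Camp), 7 were lower and 4 were not called (median -1.50). Few members stand behind Ngp. Together with Camp, Ltf and Lcn2 it reached 10 per 10000 in 6 cells of Mouse #1 and 2 of Mouse #2. In Mouse #2 these 2 cells were at 549 and 73.6, and the next member at 2.12. The Camp call, at 4.57 ± 0.30 (SE, edgeR adjusted p = 0.000928), rests on few cells, since 1 cell of each mouse held 360 of 502 and 414 of 423 Camp UMIs of its members, and it was lost at member limits of 40 and 20 (3.46, edgeR adjusted p = 0.0861). Fcnb was at 4.08 and 6.66 CPM in monocytes, with 5.07 ± 0.44 (SE, edgeR adjusted p = 0.00157). Among late neutrophil genes 2 of 13 were higher and 4 lower (median -1.30), against 9.82% higher and 12.3% lower of all genes tested.

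The comparison with monocytes has a limit of its own. In Mouse #2 the monocytes carried stromal transcripts, with a sum of the stromal markers at 416 and 8387 CPM in Mouse #1 and Mouse #2, against 121 and 482 in members. Cells with Cxcl12 plus eGFP at 10 per 10000 or more were left out in an alternative, which took the Mouse #2 monocytes from 25 to 20 cells. Against monocytes 2123 genes were then called, and of 168 values of single genes over both comparisons 7 became called and 0 lost their call.

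Of 18 transcription factors tested, 6 were higher and 4 lower in members than in maturing neutrophils, and 3 higher and 4 lower than in monocytes (10 and 4, and 3 and 5, by total UMIs). Over all genes the shares with TMM were 24.4% higher and 26.1% lower than in neutrophils, and 9.82% and 12.3% against monocytes. Myb, at 164 and 268 CPM in members, was higher than in neutrophils (24.9 and 17.2, 2.58 ± 0.39 (SE, edgeR adjusted p = 0.0018)) and than in monocytes (16.3 and 4.44, 4.31 ± 0.48 (SE, edgeR adjusted p = 0.00276)). Gfi1 was at 33.1 and 37.3 CPM against 9.94 and 8.46 in neutrophils, with 1.16 ± 0.33 (SE, edgeR adjusted p = 0.0225), a call lost with DESeq2 (adjusted p = 0.111), among cells with 2000 genes and 10% mitochondrial UMIs or less (0.76, edgeR adjusted p = 0.101) and when the members or neutrophils of either mouse were left out (edgeR adjusted p from 0.0998 to 0.142). Gfi1 was higher than in monocytes, by 5.62 ± 0.61 (SE, edgeR adjusted p = 0.00271). Cebpe lay between the classes, at 109 and 146 CPM against 388 and 389 in neutrophils (-2.38 ± 0.37 (SE, edgeR adjusted p = 0.002)) and 25.5 and 6.66 in monocytes (2.96 ± 0.44 (SE, edgeR adjusted p = 0.00638)). Cebpa was higher than in neutrophils (1.81 ± 0.37 (SE, edgeR adjusted p = 0.00631)) and, against monocytes, at -0.06 ± 0.35 (SE, edgeR adjusted p = 0.929). Without the Mouse #2 members the call of Cebpe against monocytes was lost (edgeR adjusted p = 0.0676).

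Values of the monocyte factors depended on which members were counted. Irf8 was higher in members than in neutrophils, at 250.1 and 269 against 4.59 and 22.8 CPM (3.44 ± 0.76 (SE, edgeR adjusted p = 0.00893)), and at 385 and 119.8 in monocytes (0.16 ± 0.67 (SE, edgeR adjusted p = 0.889)). With the 27 cells of high monocyte genes left out, its fold change against neutrophils was 0.79 (edgeR adjusted p = 0.511), and without the Mouse #2 members it was 3.44 (edgeR adjusted p = 0.0534). Klf4 turned with the same step, from 0.62 ± 0.63 (SE, edgeR adjusted p = 0.442) against neutrophils to -4.33 (edgeR adjusted p = 0.00228), while it was called higher with the highest Scrublet scores removed (2.29, edgeR adjusted p = 0.0297), with cells of stromal transcripts left out (2.47, edgeR adjusted p = 0.0366) and with no filter on low counts (0.65, edgeR adjusted p = 0.039). Against monocytes Klf4 was at -1.77 ± 0.63 (SE, edgeR adjusted p = 0.0864), and it passed with the mouse as a block (edgeR adjusted p = 0.0434), with DESeq2 (adjusted p = 0.0437), with no filter (edgeR adjusted p = 5.93e-09), with monocytes from 12 per 10000 (edgeR adjusted p = 0.0461) and without the cells of high monocyte genes (-6.73, edgeR adjusted p = 0.000942). Id2, an inhibitor of E proteins, was lower than in both classes, at -4.22 ± 0.43 (SE, edgeR adjusted p = 0.000343) and -4.32 ± 0.44 (SE, edgeR adjusted p = 0.00235), and Cebpb, the factor of later myeloid stages, at -1.75 ± 0.24 (SE, edgeR adjusted p = 0.00125) and -1.58 ± 0.24 (SE, edgeR adjusted p = 0.00708), the last not called without the Mouse #2 members (edgeR adjusted p = 0.0814). Among cells with 2000 genes and 10% mitochondrial UMIs or less, Cebpb was at -0.54 against neutrophils and not called (edgeR adjusted p = 0.107).

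Of 17 growth factor and chemokine receptors tested, 4 were higher and 9 lower than in maturing neutrophils (6 higher and 5 lower by total UMIs), and 0 higher and 9 lower than in monocytes with either scaling (1 and 9 with the mouse as a block). Over all genes 24.4% were higher and 26.1% lower than in neutrophils (4112 and 1278 of 9232 genes by total UMIs), and 9.82% higher and 12.3% lower than in monocytes. Csf3r, the G-CSF receptor, was at 32.1 and 28.7 CPM in members and 268 and 198 in neutrophils, with -3.70 ± 0.31 (SE, edgeR adjusted p = 0.000172), and at -0.76 ± 0.31 (SE, edgeR adjusted p = 0.116) against monocytes, where it was called with monocytes from 12 per 10000 (-0.996, edgeR adjusted p = 0.0177). Csf2rb, the shared chain of the GM-CSF, IL-3 and IL-5 receptors, was lower than in both (-1.74 ± 0.29 (SE, edgeR adjusted p = 0.00255) and -1.73 ± 0.29 (SE, edgeR adjusted p = 0.00947)), and Il3ra, the IL-3 chain, higher than in neutrophils (1.67 ± 0.34 (SE, edgeR adjusted p = 0.00648)). Cxcr4, the receptor of CXCL12, was at 157 and 98.5 CPM in members against 169.8 and 117 in neutrophils, with -0.93 ± 0.28 (SE, edgeR adjusted p = 0.0301), a difference not called by total UMIs (-0.16, edgeR adjusted p = 0.643) or among cells with 2000 genes and 10% mitochondrial UMIs or less (-0.21, edgeR adjusted p = 0.498). Against monocytes Cxcr4 was at -0.24 ± 0.29 (SE, edgeR adjusted p = 0.575), and at -1.31 (edgeR adjusted p = 0.0366) without the cells of high monocyte genes. Leaving out columns ended the call of Cxcr4 against neutrophils without the Mouse #2 members or the neutrophils of either mouse (edgeR adjusted p from 0.0559 to 0.219), of Il3ra without the Mouse #1 members (0.0572) and of Csf2rb against monocytes without the members of either mouse (0.0858 and 0.0900). Within members Cxcr4 was higher in the cells with high monocyte genes (205 and 191 CPM) than in those with low (81.8 and 41.4).

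Of 11 early progenitor genes tested, 6 were higher and 0 lower than in neutrophils (median 1.63), and 3 higher and 0 lower than in monocytes (median 1.84). By total UMIs the counts were 8 and 0, and 3 and 1, and with the mouse as a block 5 were higher and 1 lower than in monocytes. Called shares over all genes with TMM were 24.4% higher and 26.1% lower than in neutrophils, and 9.82% and 12.3% against monocytes. Cdk6 was at 288 and 287 CPM in members, 21.8 and 12.4 in neutrophils and 27.5 and 46.6 in monocytes, with 3.31 ± 0.31 (SE, edgeR adjusted p = 0.000268) and 3.18 ± 0.33 (SE, edgeR adjusted p = 0.0024). Cd34 was higher by 1.90 ± 0.44 (SE, edgeR adjusted p = 0.011) and 2.61 ± 0.54 (SE, edgeR adjusted p = 0.0177), with its highest cells being the 3 described above, and it was not called when the members of either mouse were left out (edgeR adjusted p from 0.0671 to 0.118), nor against neutrophils without the neutrophils of either mouse (0.0610 and 0.0833), nor against monocytes with the highest Scrublet scores removed (0.105). Kit was at 28.9 and 58.3 CPM against 9.94 and 9.11 in neutrophils and 3.06 and 19.97 in monocytes, with 1.38 ± 0.56 (SE, edgeR adjusted p = 0.0766) and 2.36 ± 0.70 (SE, edgeR adjusted p = 0.0515), and both passed with the mouse as a block (edgeR adjusted p = 0.0444 and edgeR adjusted p = 0.0298), with no filter and without the cells of high monocyte genes (2.28 and 3.21, edgeR adjusted p = 0.00986 and 0.00996). Kit also passed against neutrophils by total UMIs (2.16, edgeR adjusted p = 0.0169) and with cells of stromal transcripts left out (1.72, edgeR adjusted p = 0.0408), and against monocytes with a limit of 12 per 10000 (4.69, edgeR adjusted p = 0.00279) and without the Mouse #2 monocytes (3.87, edgeR adjusted p = 0.0128). The monocyte list had 5 of 11 genes higher and 1 lower than in neutrophils (median 0.66; 6 and 0 by total UMIs, and 0 and 6 without the cells of high monocyte genes), and 0 higher and 7 lower than in monocytes (median -3.24). Of these, Ctss against neutrophils went from 1.81 ± 0.56 (SE, edgeR adjusted p = 0.0322) to -4.11 (edgeR adjusted p = 0.0229) without the cells of high monocyte genes. With all members it was not called without the members of Mouse #1 or Mouse #2 (edgeR adjusted p = 0.196 and 0.0651) or the neutrophils of Mouse #1 (0.0999), nor among cells with 2000 genes and 10% mitochondrial UMIs or less (0.128).

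Transcripts of the S phase and mitosis lists, which include Hmgb2, were found in nearly all members and in most cells of both other classes. After every cell was thinned to 2000 UMIs, which left out 0 members, at least 2 UMIs of 30 S phase and mitosis genes were found in 100% of members of Mouse #1 (Wilson interval 91.0 to 100) and 95.2% of Mouse #2 (77.3 to 99.2). The shares were 82.98% and 81.5% of maturing neutrophils and 63.0% and 60% of monocytes. Without thinning they were 100% of members, 100% and 99.0% of neutrophils and 98.1% and 96.0% of monocytes. All these shares count Hmgb2, and shares without it were not computed, so they are not shares of dividing cells. A UMI of Cdk1, from the mitosis list, was seen in 89.7% and 90.5% of members. It was seen in 17.6% and 15.6% of neutrophils and 37.0% and 24% of monocytes, which had fewer UMIs per cell. Without Hmgb2, which is abundant in all these classes, the list summed to 4359 and 3715 CPM in members, 2004 and 1792 in neutrophils and 3906 and 2122 in monocytes, against 459.6 and 391 in stromal cells. Within members the cells with high monocyte genes were at 4919 and 4286 CPM and those with low at 3439.7 and 3405.

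Of 15 S phase genes, 11 were higher and 0 lower than in neutrophils (median 1.32), and 5 higher and 0 lower than in monocytes (median 1.01). By total UMIs 14 and 3 were higher, and among cells with 2000 genes and 10% mitochondrial UMIs or less 7 were higher and 1 lower than in neutrophils. With TMM the shares over all genes were 24.4% higher and 26.1% lower than in neutrophils, and 9.82% and 12.3% against monocytes. Mcm6, a subunit of the replicative helicase, was at 142 and 253 CPM in members and 31.0 and 36.4 in neutrophils, with 1.76 ± 0.34 (SE, edgeR adjusted p = 0.00502), and at 1.27 ± 0.34 (SE, edgeR adjusted p = 0.0399) against monocytes. The call of Mcm6 was lost against neutrophils without the neutrophils of Mouse #1 (edgeR adjusted p = 0.0525), and against monocytes without any 1 column other than the Mouse #1 monocytes (0.0541 to 0.213), by total UMIs (0.0527), with the highest Scrublet scores removed (0.0539) and without the cells of high monocyte genes (0.0643). Of 15 mitosis genes, 0 were higher and 1, Hmgb2, lower than in neutrophils (median -0.14), and 0 were called against monocytes (median 0.32). These values are of summed UMIs, in which deep cells weigh most. Ccnb1, for 1, had a UMI in 61.5% and 71.4% of members and in 13.3% and 10.7% of neutrophils. Median depths were 51801 and 46741 UMIs in members and 9192.5 and 10374 in neutrophils. With the mouse as a block 2 were lower than in neutrophils and 1, Cdk1, was higher than in monocytes. Top2a, the topoisomerase of dividing cells, was at 487 and 268 CPM in members and 231 and 202 in neutrophils, with 0.04 ± 0.39 (SE, edgeR adjusted p = 0.947). By total UMIs the list median against neutrophils was 0.62, with 1 gene higher and 0 lower, so the direction of this list rests on the scaling. Mki67 was at -0.72 ± 0.26 (SE, edgeR adjusted p = 0.0573) against neutrophils and was called lower with the mouse as a block (edgeR adjusted p = 0.024), with DESeq2 (-0.73, adjusted p = 0.0419) and under 10 other alternatives (-0.68 to -1.24). Cell cycle inhibitors were lower in 6 of 8 against neutrophils and 3 of 8 against monocytes with TMM, in 4 and 6 by total UMIs, and in 5 against monocytes with the mouse as a block, with Btg2, an antiproliferative factor, at -3.74 ± 0.39 (SE, edgeR adjusted p = 0.000396) and -2.54 ± 0.38 (SE, edgeR adjusted p = 0.00666), the last not called without the Mouse #2 members (edgeR adjusted p = 0.0646).

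All 13 ribosome biogenesis genes were higher in members than in neutrophils (median 3.07), summing to 4644 and 5447 CPM against 369 and 329, and 10 of 13 were higher than in monocytes (median 1.67). Npm1, the nucleolar chaperone, was at 1977 and 2136 CPM, against 111 and 90.8 in neutrophils (3.58 ± 0.23 (SE, edgeR adjusted p = 9.40e-05)) and 719 and 528 in monocytes (1.88 ± 0.22 (SE, edgeR adjusted p = 0.00297)). Of 16 genes of folding and secretion in the endoplasmic reticulum, 15 were higher than in neutrophils (median 1.61) and 10 than in monocytes (median 0.89), with 0 lower (16 and 7 higher by total UMIs). Sdf2l1, a partner of the chaperone Hspa5, was at 268 and 362 CPM against 8.03 and 7.16 in neutrophils (4.59 ± 0.27 (SE, edgeR adjusted p = 7.88e-05)), and Pdia6, a disulfide isomerase, had 2.98 ± 0.22 (SE, edgeR adjusted p = 0.000123) and 1.33 ± 0.20 (SE, edgeR adjusted p = 0.00695), the last not called without the Mouse #2 members (edgeR adjusted p = 0.0657). The ribosome list was at 4727 and 5432 CPM in members with high monocyte genes and 4434 and 5130.3 in those with low, and the folding and secretion list at 7620.2 and 8364 and 9868 and 10422.

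Of 7 tested heme synthesis genes 1, Alas1, was higher than in neutrophils (1.16 ± 0.26 (SE, edgeR adjusted p = 0.00858)) and than in monocytes (3.35 ± 0.30 (SE, edgeR adjusted p = 0.0017)), a call against neutrophils that was lost without the Mouse #1 members or the Mouse #2 neutrophils (edgeR adjusted p = 0.0571 and 0.0689), and 1, Ppox, was lower than in neutrophils with TMM. By total UMIs 2 were higher than in neutrophils and 0 lower, and 4 were higher with the highest Scrublet scores removed or with cells of stromal transcripts left out. Over all genes 24.4% were called higher and 26.1% lower than in neutrophils with TMM. All 6 subunits of the phagocyte NADPH oxidase, which makes superoxide in mature phagocytes, were lower than in neutrophils (median -2.77), and 3 of 6 were lower than in monocytes (median -0.64). Cybb, its catalytic subunit, was at 111 and 148 CPM in members and 1324 and 1159.9 in neutrophils, with -4.04 ± 0.25 (SE, edgeR adjusted p = 8.40e-05).

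**Figure D5:**
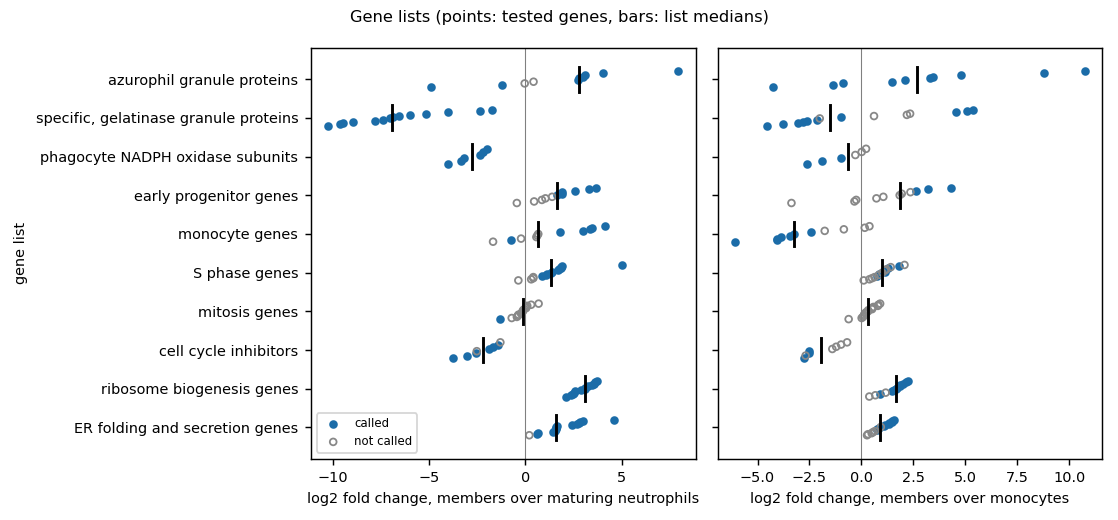
Log2 fold changes of the genes of 10 lists in Elane/Mpo-high cells over maturing neutrophils (left) and over monocytes (right); filled points were called at an adjusted p under 0.05, open points were not, and bars are list medians. All 13 ribosome genes lie above 0 on the left, and all 14 specific and gelatinase granule genes below.

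Outside the lists, the genes with the largest called increase over neutrophils at 50 CPM or more were Ass1, argininosuccinate synthase, C1qbp, a mitochondrial matrix protein, Phgdh, the first enzyme of serine synthesis, Tifab, Gria3, Mettl1, a tRNA methyltransferase, Srm, spermidine synthase, and H2-DMa, a class II chaperone. Ass1 was at 313 and 198.9 CPM against 3.06 and 4.23 (5.33 ± 0.50 (SE, edgeR adjusted p = 0.000253)), and Phgdh at 223 and 229 against 4.21 and 3.58 (5.07 ± 0.22 (SE, edgeR adjusted p = 6.03e-05)). Within members Ass1 was higher with high monocyte genes (451 and 373 CPM) than with low (89.3 and 88.1). Of the 8 largest decreases, Asprv1, Stfa3, Cxcl2, Slfn1 and Fpr1 had 0 UMIs in members. At a floor of 3 UMIs over the class, Asprv1, a skin-type aspartic protease, was at least 201-fold lower, Cxcl2, a neutrophil-attracting chemokine, at least 171-fold and Fpr1, the formyl peptide receptor, at least 116-fold. Stfa3, at least 214-fold lower, belongs with Gm5483 and BC100530 to the stefin A copies, whose reads are hard to tell apart. Ly6g, the surface antigen of mouse neutrophils, was at 0 and 0.96 CPM in members and 470.3 and 600.5 in neutrophils.

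Over monocytes the largest called increases outside the lists were Mgst2, Phgdh, Rab44, Spint2, Tma16, Mt1, Rgcc and Srm. Mgst2, a microsomal glutathione transferase, was at 122 and 103 CPM against 9.17 and 4.44 (4.05 ± 0.32 (SE, edgeR adjusted p = 0.00119)), and Mt1, a metallothionein, at 440.4 and 513 against 57.1 and 93.2 (2.87 ± 0.27 (SE, edgeR adjusted p = 0.00186)). Phgdh and Srm appear in both comparisons, which share the member columns. Among the largest decreases were Ly6d, Cd74, H19, Ifi27l2a, Plbd1, Sirpb1c and Pla2g7. H19 was at 0.53 and 1.91 CPM in members and 54.0 and 501.6 in monocytes, whose stromal markers summed to 416 and 8387 CPM. Whether stromal RNA carried the H19 of monocytes was not tested. Ly6d, with 0 UMIs in members, was at least 107-fold lower. Cd74, the class II invariant chain, was at 3.21 and 0 CPM against 1123 and 164 (-8.14 ± 1.25 (SE, edgeR adjusted p = 0.00708)), and it was not called without the members of either mouse (edgeR adjusted p = 0.0530 and 0.0878).

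Transcripts of other cell types were low in members. The stromal list summed to 121 and 482 CPM in members against 30092 and 33597 in stromal cells, with most of Mouse #2's Col1a1 in the 1 cell described above. B cell markers summed to 98.9 and 51.6 CPM, with Cd79a in 1 cell, erythroid markers to 259.7 and 174, endothelial markers to 36.9 and 45.9 and megakaryocyte markers to 2.14 and 2.87, with Pf4, Ppbp and Gp1bb at 0. Macrophage markers summed to 115 and 83.2, nearly all of it Vcam1, with C1qa, C1qb and Mrc1 at 0, and T, NK and dendritic cell markers to 429.7 and 511, nearly all of it Nkg7. Basophil, mast cell and eosinophil genes summed to 35.8 and 117 CPM. In neutrophils the erythroid sum was 307 and 12213 CPM, the Mouse #2 neutrophils being high in globin.

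Among all 9232 genes 24.4% were called higher and 26.1% lower than in neutrophils, and 9.82% and 12.3% against monocytes. Listed genes with too few counts were not tested, which left 3 of 7 endothelial and 5 of 12 basophil, mast cell and eosinophil genes. In the tests of these lists, 0 of 9 stromal genes were higher and 3 lower than in neutrophils, not far from the share over all genes, with 0 of 9 called against monocytes. With the mouse as a block 8 were lower than in neutrophils and 5 than in monocytes, Col1a1 among them (edgeR adjusted p = 0.0142 and edgeR adjusted p = 0.0075), and by total UMIs 2 and 3. Endothelial markers had 0 higher and 1 lower of 3 against neutrophils, and 1 higher and 0 lower against monocytes. B cell markers had 4 and 3 of 5 lower, erythroid markers 4 and 0 of 5, and basophil, mast cell and eosinophil genes 2 and 2 of 5, with 0 higher in each. By total UMIs B cell markers had 4 and 4 lower, and the basophil, mast cell and eosinophil genes 1 higher and 1 lower, and 0 and 3. With the mouse as a block these genes had 1 higher, Mcpt8, a basophil protease, and 1 lower than in neutrophils. That Mcpt8 call rests largely on 1 cell of Mouse #2, which held 28 of the 43 Mcpt8 UMIs of members. A Mcpt8 UMI was seen in 9 of 60 members. With the highest Scrublet scores removed 1 B cell marker was lower in each comparison. Of 3 T, NK and dendritic cell markers 1 was higher and 1 lower in both comparisons (1 and 2 against monocytes by total UMIs), of 2 macrophage markers 0 and 1 were lower, and no megakaryocyte marker had enough counts to be tested.

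Although the sort was for GFP, members held little of it. The eGFP feature was at 16.0 and 22.0 CPM in members against 11290.2 and 11098 in stromal cells, with a UMI in 24 of 60 members. Cxcl12 was at 28.9 and 30.6 CPM against 7899 and 7995, and tdTomato at 6.95 and 11.5 against 700.4 and 1008, with a UMI in 16 members. The recombinase feature iCreER had 0 UMIs in members. Maturing neutrophils held more eGFP, at 310.1 and 280.1 CPM (-4.75 ± 0.89 (SE, edgeR adjusted p = 0.00441), members over neutrophils), a call lost without the members of either mouse (edgeR adjusted p = 0.0502 for both). In the cells kept out by Hp it was at 343 and 524 CPM. Whether free RNA of the stromal cells carried these UMIs was not tested.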

How the data were processed

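Cxcl12-GFP+ cells from femurs of 2 mice were profiled with 10x Chromium v3, 1 library each. The deposited values are raw UMI counts per gene and barcode that the authors made with Cell Ranger 3.0.0 on mm10 with added reporter sequences, over 28006 features and 6794880 barcodes, with 54940400 and 88790688 UMIs. The annotation release and the use of strand are not given in the sources used here. Barcodes were kept as cells from 1000 genes up, with mitochondrial UMIs at 15% or less. Doublets were kept, and their removal by Scrublet scores (scanpy 1.11.5) was an alternative.

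UMIs were summed per mouse and class and compared with edgeR 4.0.16 (R 4.3.3) by its quasi-likelihood test, with filterByExpr, TMM and Benjamini-Hochberg adjustment, and called at an adjusted p under 0.05. The code was tested on simulated data. DESeq2 1.42.0, other limits, other scalings, the mouse as a block and leaving out 1 column were alternatives. Same-mouse columns come from 1 animal, and their deviations from class means correlated at 0.145, 0.318 and 0.184 over 9245 genes. Members, gene lists and groups were chosen with earlier results of these data known. All listed genes could be named, with the 8 called genes of largest change per direction outside the lists, alike in both mice and at 50 CPM or more in the higher class; 1 of these is not reported here. A class needed 10 cells per mouse, so members with and without granule transcripts were not tested.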

Additional observations from a re-analysis of the deposited data

Results flagged for a closer look

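Barcodes below the limit for cells also met the transcript rule. With at least 500 but under 1000 genes and the same limit on mitochondrial UMIs, 4 barcodes of Mouse #1 and 15 of Mouse #2 had Elane, Mpo, Prtn3 and Ctsg at 20 per 10000 or more, Elane plus Mpo at 10 or more, and Adipoq, Lpl and Hp under 10. These barcodes were in no comparison, and more of them came from the mouse with fewer members. Counting cells from 500 genes and 20% mitochondrial UMIs, members were 45 of 3085 cells in Mouse #1 and 36 of 5196 in Mouse #2.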

How the results depend on the processing

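With either mouse left out, the share of members was that of the other mouse, 0.458% or 1.42%. The share of members with at least 2 cell cycle UMIs after thinning was then 95.2% or 100%. Neither moved beyond 1 SD under the other alternatives, but an SD from 2 mice is wide (0.679 on a mean share of 0.938%), so this limit shows little. Without the members with high monocyte genes the mean share was 0.505%. Against maturing neutrophils 4666 genes were called and against monocytes 2041 (5352 and 3570 at an unadjusted p under 0.05), with 3659 and 1617 by DESeq2. With 1 column left out, its class then resting on 1 mouse assumed to vary like the others, the counts ran from 2647 to 5609 and from 281 to 2131. Against neutrophils they were 2916 without the Mouse #1 members, 2740 without the Mouse #2 members, and 2647 and 2654 without the neutrophils of Mouse #1 and Mouse #2. Against monocytes they were 658 without the Mouse #1 members, 281 without the Mouse #2 members, 980 and 947 without the neutrophils of Mouse #1 and Mouse #2, and 3068 with no filter on low counts. Of 168 gene values, 24 and 32 lost their call without the members of Mouse #1 and Mouse #2, 13 and 15 without the neutrophils and 3 and 2 without the monocytes, and 0 called values changed direction.

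With the mouse as a block the counts were 4806 and 2113. It changed the calls of Kit in both comparisons, of Klf4 against monocytes and of Mki67 against neutrophils, given above with the list counts it moved by over 1.5 times, and no other call of a gene given with a fold change. Leaving out the 27 members with high monocyte genes, an alternative chosen after seeing the data like the single columns and the total-UMI scaling, gave 3987 and 2273 calls. Klf4 against neutrophils then turned to -4.33 (-4.28 with the block) and Ctss to -4.11 (-4.04 with the block). Planned comparisons of members with and without granule transcripts, and their alternatives, were not run.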
